A study of Mus musculus with 8 samples.

Results

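Betacellulin (Btc), amphiregulin (Areg), epiregulin (Ereg), heparin-binding EGF-like growth factor (Hbegf), transforming growth factor alpha (Tgfa), the 4 ErbB receptors (Egfr, Erbb2, Erbb3, Erbb4) and the ErbB inhibitor Errfi1 were followed by histone H3 lysine 27 acetylation (H3K27ac) in mpkCCD cells, a mouse line of the cortical collecting duct. These 10 genes, of 21883 protein-coding genes on the assembled chromosomes, were taken by name, and each was given a window of its RefSeq span plus 20 kb on each side. The names were selected on peak calls of these same lists, so every count over the 10 genes is a description and carries no test. Cells of clone 11, at passages 6 to 10, had been grown in medium that held 10 ng/mL EGF, a ligand of Egfr, and were then kept in serum-free and hormone-free medium for 24 h. They next received 0.1 nM dDAVP, an analogue of vasopressin that acts on the V2 receptor, or vehicle, for 24 h, with both groups prepared alike otherwise. Whether EGF was left out of the second medium is not given in the sources used here. Each of 2 experiments gave 1 dDAVP and 1 vehicle library with an input each, so there were 4 peak lists, and the experiment number serves as the replicate number. A single clone was used, and nothing states how far the 2 experiments were separate cultures.

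ErbB receptors are tyrosine kinases that pair up when a ligand binds, and they signal through the Ras to MAP kinase and phosphoinositide 3-kinase routes. The EGF family ligands are made as membrane proteins and are released by shedding enzymes, so a cell can stimulate itself and its neighbours. In isolated rabbit collecting ducts EGF is known to oppose the effect of vasopressin on water transport. Vasopressin raises cyclic AMP in principal cells, and the factor CREB, which binds the cyclic AMP response element (CRE), is a classical target of that signal. H3K27ac is carried by nucleosomes at active promoters and enhancers, and it is a chromatin mark, not a measure of RNA.

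The lists differed in length, which bears on every count of covered bases. They held 37235 peaks over 99.0 Mb for dDAVP and 39745 peaks over 104 Mb for vehicle in experiment 1, and 20124 peaks over 33.5 Mb for dDAVP and 29597 peaks over 56.9 Mb for vehicle in experiment 2. The immunoprecipitated libraries kept between 27923780 and 32705755 tags, so the short dDAVP list of experiment 2 was not the one with the fewest tags. Over the 13562 genes with a peak in their window in all 4 lists, the median ratio of covered bases, dDAVP over vehicle, was 0.985 in experiment 1 and 0.694 in experiment 2. The part of list length in the results below was examined only by trimming the lists. Promoters, or gene ends for Scnn1a and Hsd11b2, of 5 of 7 principal cell markers were called in all 4 lists, among them Aqp2, the vasopressin-regulated water channel, and Avpr2, the V2 receptor, while Aqp3 was called in none. Of the markers of other cells, 0 of 5 for intercalated cells, 1 of 5 for proximal tubule (Lrp2), 0 of 4 for thick limb and distal convoluted tubule, 0 of 4 for fibroblasts and 0 of 4 for leukocytes and endothelium were called in all 4 lists. Aqp6 (intercalated), Dcn (fibroblast) and Cd68 (leukocyte) were called in all but dDAVP replicate 2, and Col1a1 (fibroblast) in both lists of experiment 1.

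A peak lay in the window in all 4 lists for 8 of the 10 genes, against 62.0% of all protein-coding genes, and the exceptions were Ereg and Erbb4. A promoter, or a gene end for Ereg, Hbegf and Erbb3, whose promoters are not in the table used, was called in all 4 lists for 8 of the 10, against 42.7% of all genes, again without Ereg and Erbb4. Of the 8 genes, 6 had fewer covered bases with dDAVP in both experiments (Btc, Areg, Hbegf, Tgfa, Egfr and Errfi1), against 52.5% of genes with a peak in all 4 lists, and 0 had more in both, against 2.34%. With the lists trimmed to equal covered bases within each experiment, 7 genes kept a peak in all 4 lists. Of these, 3 (Hbegf, Tgfa and Errfi1) had fewer in both, against 35.0% of genes, and 1 (Erbb2) had more in both, against 15.9%. These counts are not read as a property of the family, since its names were chosen by peak calls and the smallest exact permutation p that 2 against 2 lists allow is 0.333, or 0.5 for 2 pairs. In a bulk library, fewer cells that carry the mark and less mark per cell cannot be told apart.

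**Figure D1:**
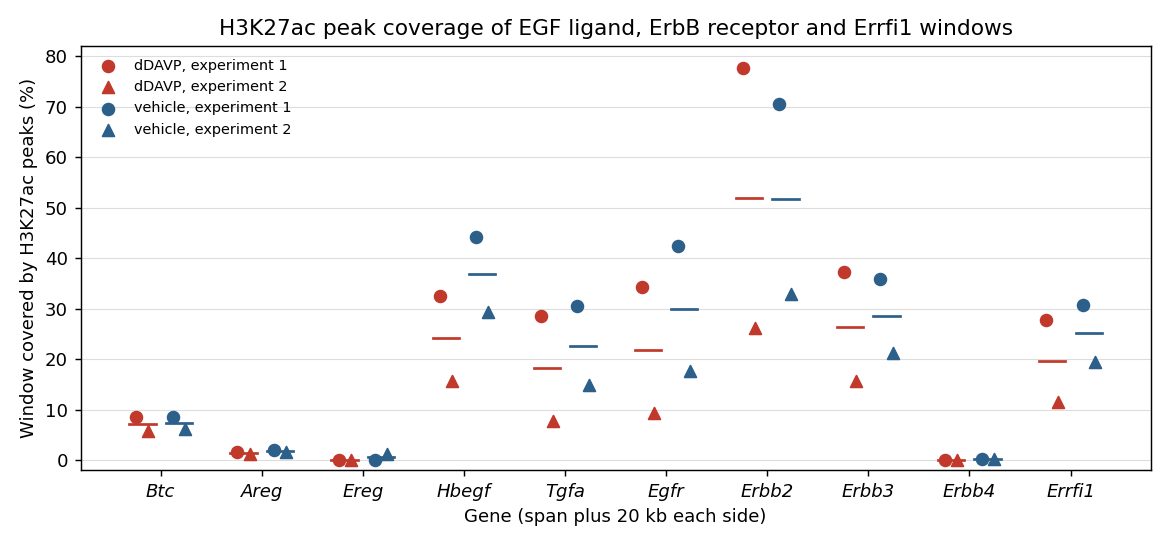
Share of each gene's window (span plus 20 kb each side, percent) covered by H3K27ac peaks. Red marks are dDAVP lists and blue marks vehicle lists, circles experiment 1 and triangles experiment 2, and short bars the mean of 2 lists. Erbb2 was covered most, at 77.5% and 26.2% with dDAVP and 70.4% and 32.9% with vehicle, while Areg, Ereg and Erbb4 stayed at or below 2.03% in all 4 lists.

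Merging the peaks of the 4 lists gave 58 separate regions in the 10 windows. All 4 lists called 27 of them, or 46.6%, against 36.2% of the 45705 regions of the genome. Both vehicle lists and no dDAVP list called 2 regions, 1 in the body of Erbb4 and 1 beside Hbegf. They made up 3.45% of the 58, against 2.51% of all regions. Lists trimmed to equal covered bases left 0 of 53, but only 6 of all 40130 regions were then of this kind. That setting therefore says nothing about these 2 regions. The reverse pattern, both dDAVP lists and no vehicle list, occurred in 0 of the 58 regions, against 0.0635% of all regions, and a call in dDAVP replicate 1 alone was seen in 10 regions, or 17.2%, against 11.9% of all regions. Both lists of experiment 1 alone called 6, or 10.3%, against 16.0% of all regions. The mean pileup of each region, the tag coverage that the peak caller reports, was divided by the tags to which each call was scaled, and it is given per 1000000 such tags (ppm), weighted by length where a list held several peaks in a region. By this measure 13 of the 27 regions were lower with dDAVP in both experiments, against 46.7% of the 16537 regions called in all 4 lists genome-wide, and 2 were higher in both, against 10.5%. Fragment lengths differed between the calls, from 210 to 255 bp, and after division by them 20 of the 27 regions were lower in both and 2 higher in both, against 62.8% and 6.51% of all regions. The median pileup ratio of the 27 regions, dDAVP over vehicle, was 0.963 in experiment 1 and 0.885 in experiment 2, beside 0.985 and 0.852 for all 16537.

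Ereg, Areg and Btc lie in that order within 415 kb of chromosome 5, in a cluster that also holds Epgn, which encodes epigen, another EGF receptor ligand, and the end of the metabolic gene Mthfd2l (mm10, chr5:91007517-91422994 with the margins). Peaks covered 9280 and 5430 bp of the cluster with dDAVP and 8307 and 7049 bp with vehicle, in experiments 1 and 2. The difference, dDAVP minus vehicle, was 973 bp in experiment 1 and -1619 bp in experiment 2, with a mean of -323 ± 1833 bp (SD, n = 2 pairs), so its sign differed between the experiments. Of its 9 regions, 3 were called in all 4 lists, close to the share of 36.2% among all regions. They lay at the Areg promoter, at the Btc promoter and beyond the end of Btc away from that promoter. Epgn had 1 peak in its window, of 816 bp, in dDAVP replicate 1 alone.

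**Figure D2:**
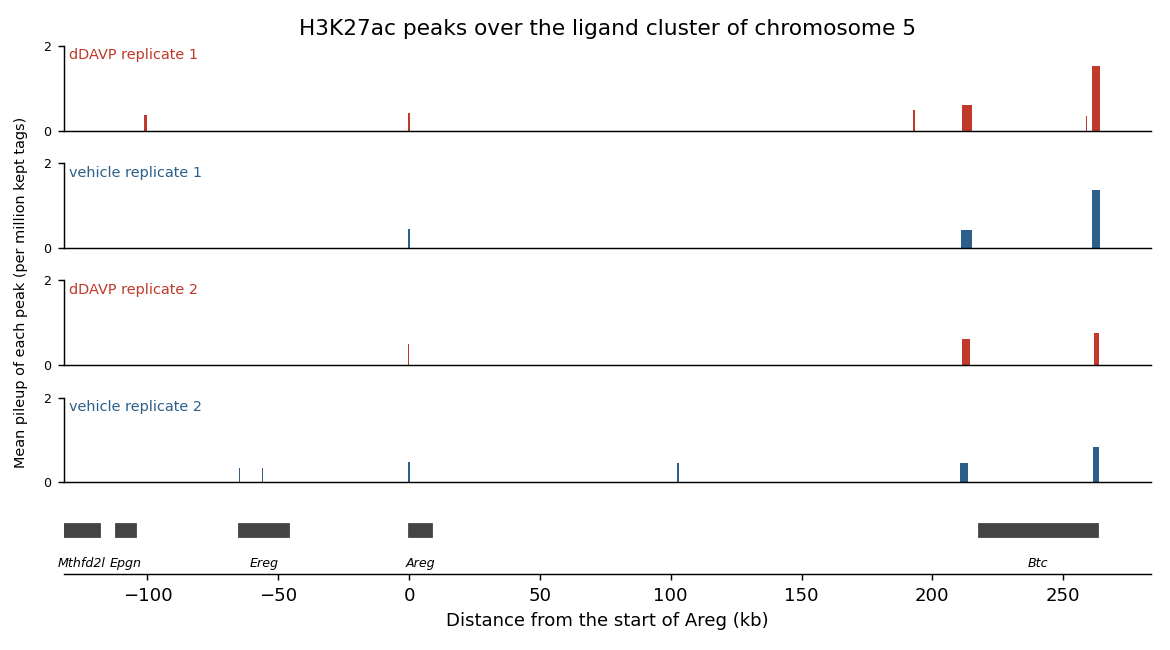
H3K27ac peaks over the chromosome 5 ligand cluster, with distance from the start of Areg on the horizontal axis (kb) and the mean pileup of each peak per 1000000 kept tags as the height of its bar. Each dDAVP list (red) stands above the vehicle list (blue) of its experiment, with the genes as grey bars below. The bars beyond the end of Btc reach 0.598 and 0.624 with dDAVP and 0.426 and 0.448 with vehicle.

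Areg encodes amphiregulin, a ligand of Egfr, and its window held a single peak in every list, over the gene's start at chr5:91139599. The peak covered 793 and 563 bp with dDAVP and 992 and 751 bp with vehicle in experiments 1 and 2, a mean difference of -193.5 ± 7.78 bp (SD, n = 2 pairs). It was shorter with dDAVP in each experiment, and the values of the groups overlap across experiments. In lists trimmed to equal covered bases the mean difference was 182 bp, the opposite sign. That setting dropped the peak from vehicle replicate 2, so the 182 bp does not show a longer peak with dDAVP. The mean pileup of the peak was 0.409 and 0.495 ppm with dDAVP and 0.438 and 0.491 ppm with vehicle. The ratios were 0.933 and 1.01, on either side of 1. After division by fragment length they were 0.882 and 0.986, both below 1. The peak contained the whole of the RefSeq promoter (300 bases, GRCm38.p6, which is mm10) in all 4 lists. That promoter is shown because it holds a full CRE, the letters TGACGTCA, 61 to 54 bases before the start, and a TATA box, TATAAA, 31 to 26 bases before it. The Btc promoter, the other called promoter of the cluster, is shown beside it and holds only the shorter CRE core, TGACG, which every full CRE also contains. Capitals mark these motifs on either strand, so that TGACG on the opposite strand reads CGTCA.
Areg promoter, chr5:91139349-91139648, plus strand: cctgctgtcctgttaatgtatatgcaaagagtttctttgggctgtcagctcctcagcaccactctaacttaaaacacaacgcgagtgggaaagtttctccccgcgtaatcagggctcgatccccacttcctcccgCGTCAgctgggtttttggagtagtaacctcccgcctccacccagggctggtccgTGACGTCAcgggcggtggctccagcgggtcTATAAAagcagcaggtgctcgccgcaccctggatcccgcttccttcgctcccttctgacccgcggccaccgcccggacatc
Btc promoter, chr5:91402945-91403244, minus strand: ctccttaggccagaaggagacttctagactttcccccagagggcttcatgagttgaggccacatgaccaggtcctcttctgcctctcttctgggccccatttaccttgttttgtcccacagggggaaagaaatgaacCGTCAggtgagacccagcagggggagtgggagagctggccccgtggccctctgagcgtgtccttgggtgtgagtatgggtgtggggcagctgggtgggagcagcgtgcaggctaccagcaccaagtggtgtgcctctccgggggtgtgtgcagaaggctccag

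On both strands of the 32851 mouse RefSeq promoters of this length, the full CRE occurred in 1.79%, the CRE core in 20.8% and the TATA box in 13.6%. The AP-1 site TGANTCA occurred in 7.81% of those promoters. Promoters were found for 7 of the 10 genes, Errfi1 having 2, and of these 8 promoters 0 held an AP-1 site, while those of Btc and Erbb2 held a CRE core without a full one. A match is a run of letters and not an observation of binding.

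Btc encodes betacellulin, which binds both Egfr and Erbb4. Peaks covered 7240 and 4867 bp of its window with dDAVP and 7315 and 5235 bp with vehicle, a mean difference of -221.5 ± 207 bp (SD, n = 2 pairs). As a ratio, 0.990 and 0.930, this is the smallest change among the 6 genes with fewer covered bases in both experiments. The sign of the mean turned when lists were trimmed to equal length or equal covered bases, which keeps the peaks with the highest -log10 q. The peak beyond the 3′ end of the gene had a -log10 q of 5.20 and 5.64 with dDAVP and 2.77 and 2.50 with vehicle. Trimming therefore reached it first in the vehicle lists. With equal covered bases the sign turned in experiment 2 alone. The promoter region, 3080 bp wide, had a pileup of 1.52 and 0.767 ppm with dDAVP and 1.37 and 0.846 ppm with vehicle, higher with dDAVP in experiment 1 and lower in experiment 2. In experiment 1 its fold over local background, the authors' deposited value, stood at the 96.8th percentile of the dDAVP list and the 95.6th of the vehicle list, and in experiment 2 at the 72.8th of the dDAVP list and the 79.4th of the vehicle list.

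The second Btc region, 4479 bp of sequence that overlaps no RefSeq gene, lies 2421 bp beyond the 3′ end of Btc (chr5:91350362-91354840) and 201.9 kb from the end of Areg. Its mean pileup was 0.598 and 0.624 ppm with dDAVP and 0.426 and 0.448 ppm with vehicle, so the 2 groups did not overlap. The ratios were 1.41 in experiment 1 and 1.40 in experiment 2, or 1.33 and 1.36 after division by fragment length. Of the 16537 regions called in all 4 lists, 9 had a larger value of the smaller of their 2 ratios, taken before that division. The peak was 3845 and 2859 bp long with dDAVP and 4245 and 2822 bp with vehicle, so its length did not follow its height. This region was singled out after its values had been seen, and its ratios are given with no test.

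**Figure D3:**
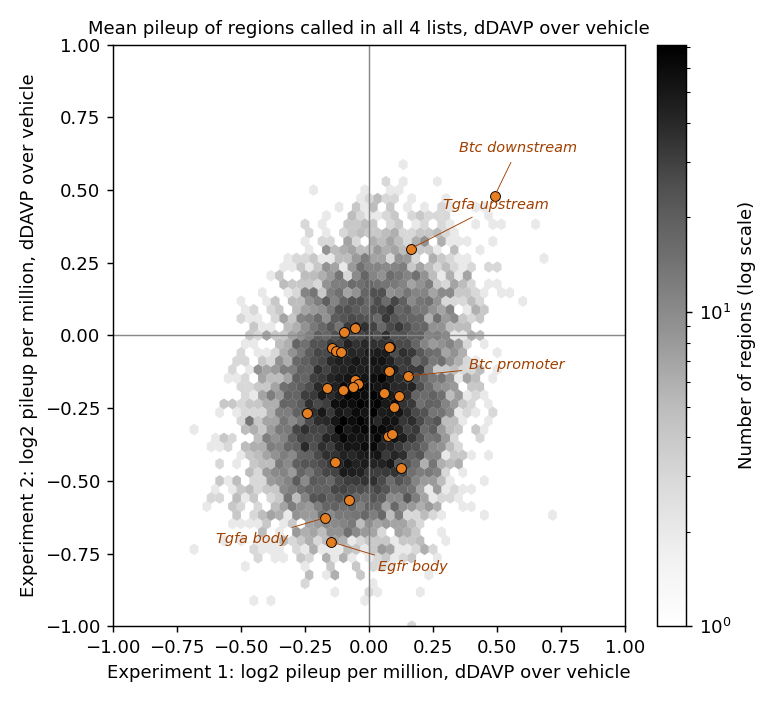
Log2 ratio of mean pileup per 1000000 kept tags, dDAVP over vehicle, in experiment 1 (horizontal) and experiment 2 (vertical), with values beyond the axes drawn at the edge. Grey hexagons count the 16537 regions called in all 4 lists on a log scale and orange points are the 27 in the windows of the 10 genes. The region beyond Btc, with ratios of 1.41 and 1.40, is the orange point farthest to the upper right.

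Ereg encodes epiregulin, a ligand of Egfr and Erbb4. Its window held 0 covered bases in both dDAVP lists and in vehicle replicate 1, and 769 bp in vehicle replicate 2. That list called 2 small peaks, of 210 bp at the lower-coordinate end of the gene and of 559 bp in its body, with pileups of 0.348 and 0.346 ppm. The 2 lists of a treatment thus did not share a call here.

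Tgfa encodes the ligand that shares Egfr with EGF itself (chr6:86195038-86275744). Peaks covered 34553 and 9417 bp of its window with dDAVP and 36762 and 17915 bp with vehicle, a mean difference of -5353.5 ± 4447 bp (SD, n = 2 pairs). The difference was mostly that of experiment 2, where the ratio was 0.526, while it was 0.940 in experiment 1. The promoter lay inside a peak in all 4 lists, with a region pileup of 1.19 and 0.783 ppm with dDAVP and 1.13 and 0.995 ppm with vehicle. Of the 5 Tgfa regions called in all 4 lists, 3 in the gene body were lower with dDAVP in both experiments, against 46.7% of all such regions. The lowest of them, 32.1 to 41.0 kb into the gene, had 0.481 and 0.439 ppm with dDAVP and 0.542 and 0.678 ppm with vehicle. A region 15.8 to 9.8 kb before the gene ran the other way, with 0.690 and 0.626 ppm with dDAVP and 0.616 and 0.509 ppm with vehicle, or ratios of 1.12 and 1.23. For that pair of ratios, 358 of the 16537 regions had a larger smaller ratio, and this region too was picked out after its values had been seen. The 0.509 ppm of vehicle replicate 2 averages 2 peaks, of 1600 bp at 0.553 ppm and of 533 bp at 0.377 ppm. In dDAVP replicate 2 the region held 1 peak, so the 1.23 compares unlike stretches. The 20 kb limit of the window left out a further peak between 4284 and 5075 bp beyond its edge in all 4 lists, with 0.495 and 0.493 ppm with dDAVP and 0.560 and 0.566 ppm with vehicle. The farthest Tgfa peak inside the limit lay 17.9 kb before the gene, was called in vehicle replicate 2 alone and had 0.350 ppm.

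Hbegf, on chromosome 18 (36504927 to 36515805), encodes heparin-binding EGF-like growth factor, which binds Egfr and Erbb4. Peaks covered 16574 and 8021 bp of its window with dDAVP and 22524 and 14890 bp with vehicle, in experiments 1 and 2. Coverage was lower with dDAVP in each experiment, with ratios of 0.736 and 0.539 and a mean difference of -6409.5 ± 650 bp (SD, n = 2 pairs), while the groups overlap across experiments. In lists trimmed to equal covered bases the mean difference was -3517.5 bp. Among the 8 genes with a peak in all 4 lists it had the lowest mean log2 ratio, -0.67 ± 0.32 (SD, n = 2 pairs). Of the 13562 genes with a peak in all 4 lists, 939 had both ratios below the 0.736 of Hbegf in experiment 1.

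The Hbegf window held 6 regions, of which 5 were called in all 4 lists, against 36.2% of all regions. Of these 5, 4 had a lower pileup with dDAVP in both experiments, against 46.7% of all regions called in all 4 lists. The region over the higher-coordinate end of the gene had 0.691 and 0.714 ppm with dDAVP and 0.758 and 0.967 ppm with vehicle. A region 6.3 to 13.3 kb from the other end of the gene had 0.737 and 1.02 ppm with dDAVP and 0.790 and 1.16 ppm with vehicle. In experiment 1 the dDAVP value averages 2 peaks, at 0.803 and 0.488 ppm, while vehicle had 1 peak. The higher of these dDAVP peaks was thus not below the vehicle peak. In experiment 2 the vehicle value averages 2 peaks, at 1.45 and 0.394 ppm, while dDAVP had 1 peak. The region called in both vehicle lists alone lay 2920 bp from the gene, covered 970 and 573 bp and had 0.392 and 0.454 ppm. In the authors' fold over local background it stood at the 26.3rd percentile of the vehicle list of experiment 1 and the 46.0th of that of experiment 2. The last region of the window overlapped the neighbouring gene Slc4a9, which begins 12261 bp from Hbegf.

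Egfr, the receptor shared by Btc, Areg, Ereg, Hbegf and Tgfa (chr11:16752203-16913907), had the largest change in bases of the 10 genes. Peaks covered 69191 and 18947 bp of its window with dDAVP and 85460 and 35465 bp with vehicle, a mean difference of -16393.5 ± 176 bp (SD, n = 2 pairs). The 2 differences, -16269 and -16518 bp, were nearly equal in bases, though the ratios were 0.810 and 0.534. In lists trimmed to equal covered bases the mean difference was -4879.5 bp, and Egfr no longer had fewer bases in both experiments. Of all genes with a peak in all 4 lists, 1839 had both ratios below 0.810.

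Egfr carried 18 regions, the most of any of the 10 genes, and 5 of them were called in all 4 lists. A further 3 were called in every list but dDAVP replicate 2, 4 in both lists of experiment 1 alone, 3 in dDAVP replicate 1 alone and 3 in vehicle replicate 1 alone, so 10 of these 13 calls were confined to the longer lists of experiment 1. The region at the promoter, 11447 bp wide, had 1.10 and 0.851 ppm with dDAVP and 1.03 and 1.08 ppm with vehicle, with no shared direction. In the gene body, the region 76.2 to 81.3 kb from the start had 0.716 and 0.462 ppm with dDAVP and 0.793 and 0.756 ppm with vehicle, or ratios of 0.903 and 0.611. The region 22.8 to 34.4 kb from the start was covered over 9093 and 0 bp with dDAVP and over 11638 and 5834 bp with vehicle.

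**Figure D4:**
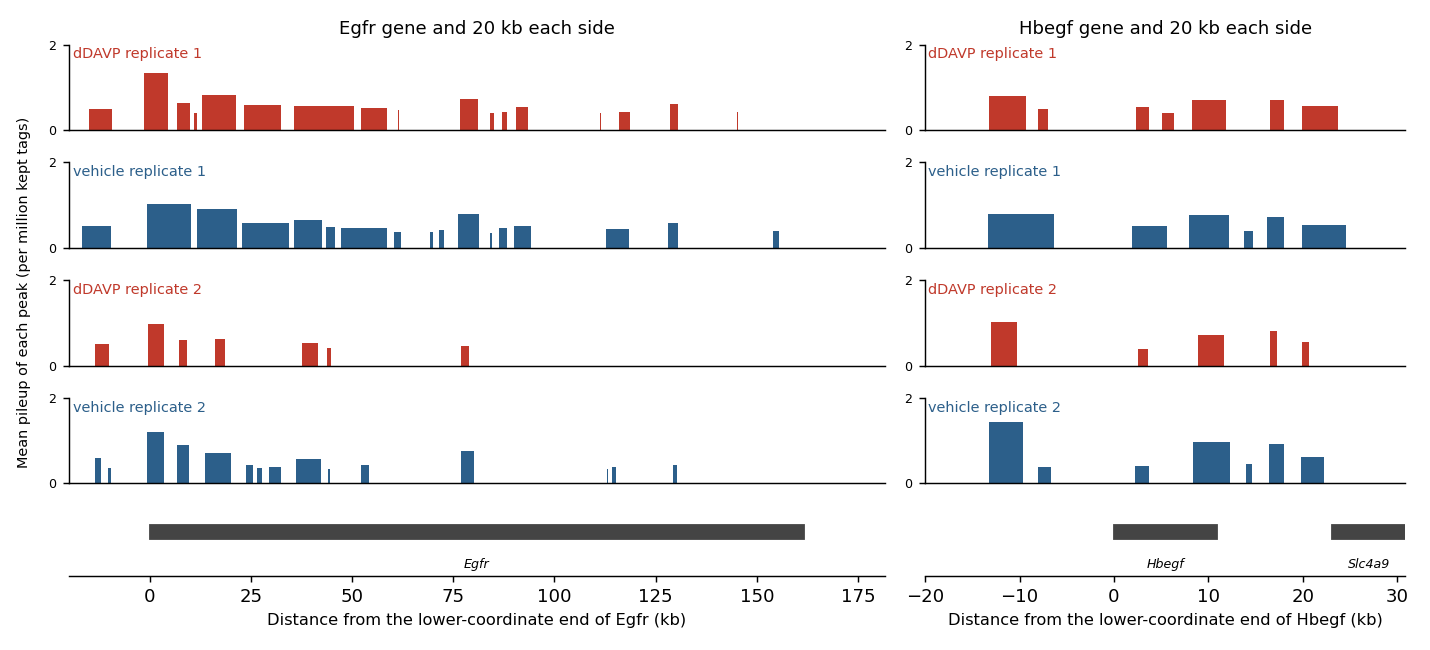
H3K27ac peaks over the windows of Egfr (left) and Hbegf (right), with distance from the lower-coordinate end of the gene on the horizontal axis (kb) and the mean pileup of each peak per 1000000 kept tags as bar height. Each dDAVP list (red) stands above the vehicle list (blue) of its experiment, with genes as grey bars below. Egfr carried 17 and 7 peaks with dDAVP and 17 and 15 with vehicle.

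Erbb2 encodes the receptor that has no known ligand of its own and pairs with the other ErbB receptors (chr11:98412484-98437716). Peaks covered 50580 and 17087 bp of its window with dDAVP and 45953 and 21482 bp with vehicle, with ratios of 1.10 and 0.795. The sign differed between experiments, and the mean difference of 116 ± 6380 bp (SD, n = 2 pairs) lay well within the spread. In lists trimmed to equal covered bases the mean difference was 4526.5 bp. Erbb2 was then the 1 gene with more covered bases in both experiments, against 15.9% of genes. In share of window covered, Erbb2 stood at or above the 98.7th percentile of all genes in each of the 4 lists. The window also takes in Pgap3, Mien1, which overlaps Erbb2, and Grb7, which encodes an adaptor that binds ErbB receptors, and 2 peaks in each list ran across its edges. The region at the Erbb2 promoter had 1.26 and 0.916 ppm with dDAVP and 1.19 and 0.941 ppm with vehicle. The highest peak of the window lay at a different place from list to list. With dDAVP it had 1.43 ppm at the Erbb2 promoter in experiment 1 and 1.65 ppm over Mien1 and Grb7 in experiment 2. With vehicle it had 1.90 ppm over Mien1 and Grb7 in experiment 1 and 2.26 ppm over Pgap3 in experiment 2. In experiment 1 the dDAVP list held 1 peak of 18562 bp over Mien1 and Grb7. The vehicle list held 3 peaks there, and the 1.90 ppm belongs to 1 of them, 8178 bp long. Over that whole region the values were 1.35 and 1.27 ppm with dDAVP and 1.39 and 1.43 ppm with vehicle. The highest value thus depends on how the caller joined peaks. Erbb2 and Errfi1 were the 2 genes whose highest value was lower with dDAVP in both experiments, and neither had its highest peaks all at 1 site. The share of all genes with this pattern was not computed, so the count is not read as a result about these genes.

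Erbb3 encodes a receptor with little kinase activity that binds neuregulins (chr10:128567523-128589635). Peaks covered 23088 and 9721 bp of its window with dDAVP and 22305 and 13167 bp with vehicle, a mean difference of -1331.5 ± 2990 bp (SD, n = 2 pairs). The ratios of 1.04 and 0.738 lay on either side of 1. The widest of its regions, 12.0 to 23.5 kb from the lower-coordinate end, had 1.66 and 1.35 ppm with dDAVP and 1.55 and 1.60 ppm with vehicle, again higher in experiment 1 and lower in experiment 2. The highest peak of the window, at 1.78 and 1.93 ppm with dDAVP and 1.64 and 2.23 ppm with vehicle, overlapped Zc3h10 and the ribosomal protein gene Rpl41, 17351 bp from Erbb3. In experiment 1 the peaks of another region ran from the neighbour Pa2g4, which lies 1589 bp away, into Erbb3. In experiment 2 the peaks of that region ended before Erbb3.

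Erbb4, a receptor for neuregulins as well as for Btc, Ereg and Hbegf, is by far the longest of these genes, at 1076693 bp (chr1:68031884-69108576). Peaks covered 706 and 0 bp of its window with dDAVP and 2753 and 1776 bp with vehicle, so every dDAVP value was below every vehicle value. These are at most 0.247% of the window, from 1 and 0 peaks with dDAVP and 2 and 2 with vehicle, and the mean difference was -1911.5 ± 192 bp (SD, n = 2 pairs). The region called in both vehicle lists alone, 468.9 kb from the lower-coordinate end, was 1066 and 302 bp long with 0.463 and 0.484 ppm. The other region was missing from dDAVP replicate 2 alone and had 0.413 ppm in dDAVP replicate 1 against 0.503 and 0.521 ppm with vehicle. No list called the promoter, which is shown with that of Errfi1 below as the only promoter of the 7 genes in the table that lay outside every peak.

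Errfi1 encodes an inhibitor that binds the kinase domain of active ErbB receptors, a negative feedback on the pathway (chr4:150853796-150868889). Peaks covered 15302 and 6324 bp of its window with dDAVP and 16960 and 10707 bp with vehicle, a mean difference of -3020.5 ± 1927 bp (SD, n = 2 pairs). Both regions called in all 4 lists were lower with dDAVP in each experiment, as were 46.7% of all such regions. The region over the start of the gene had 0.577 and 0.654 ppm with dDAVP and 0.602 and 0.739 ppm with vehicle, and the one near its end 0.604 and 0.506 ppm with dDAVP and 0.638 and 0.750 ppm with vehicle. The ratios were 0.957 and 0.885 for the first and 0.946 and 0.675 for the second.

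Errfi1 has 2 RefSeq promoters, which differ in base composition and in coverage. The upstream one (promoter 1) has 42% G and C and 2 CpG dinucleotides, was covered over 300 and 0 bases with dDAVP and over 300 and 300 bases with vehicle, and held none of the 4 motifs. The downstream one (promoter 2) has 66.7% G and C and 41 CpG dinucleotides, against medians of 52.7% and 7 over all promoters of the table, and was covered over all 300 bases in all 4 lists. It holds a full CRE 51 to 44 bases before its start and a TATA box 28 to 23 bases before it, an arrangement close to that in the Areg promoter. Of the 8 promoters, those of Areg and Errfi1 promoter 2 held a full CRE. The capitals mark these motifs as above, and the Erbb4 promoter holds none.
Errfi1 promoter 1, chr4:150853546-150853845, plus strand: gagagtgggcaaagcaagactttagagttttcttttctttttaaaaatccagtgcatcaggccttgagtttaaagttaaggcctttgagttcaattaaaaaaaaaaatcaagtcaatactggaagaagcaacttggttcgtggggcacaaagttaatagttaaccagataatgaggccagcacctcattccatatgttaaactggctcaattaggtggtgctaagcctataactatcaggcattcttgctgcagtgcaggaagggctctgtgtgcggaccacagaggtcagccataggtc
Errfi1 promoter 2, chr4:150854820-150855119, plus strand: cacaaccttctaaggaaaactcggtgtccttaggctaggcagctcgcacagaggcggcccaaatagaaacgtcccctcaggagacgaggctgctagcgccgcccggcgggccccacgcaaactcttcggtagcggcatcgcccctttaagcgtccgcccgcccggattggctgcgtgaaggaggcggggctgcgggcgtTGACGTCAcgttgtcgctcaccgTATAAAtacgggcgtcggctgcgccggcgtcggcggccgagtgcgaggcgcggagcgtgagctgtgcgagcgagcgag
Erbb4 promoter, chr1:69108010-69108309, minus strand: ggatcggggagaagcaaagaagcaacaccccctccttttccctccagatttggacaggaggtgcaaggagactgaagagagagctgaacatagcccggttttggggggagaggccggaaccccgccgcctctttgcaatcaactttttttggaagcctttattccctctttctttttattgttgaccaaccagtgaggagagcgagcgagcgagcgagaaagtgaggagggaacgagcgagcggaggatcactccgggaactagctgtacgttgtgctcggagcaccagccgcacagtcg

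**Figure D5:**
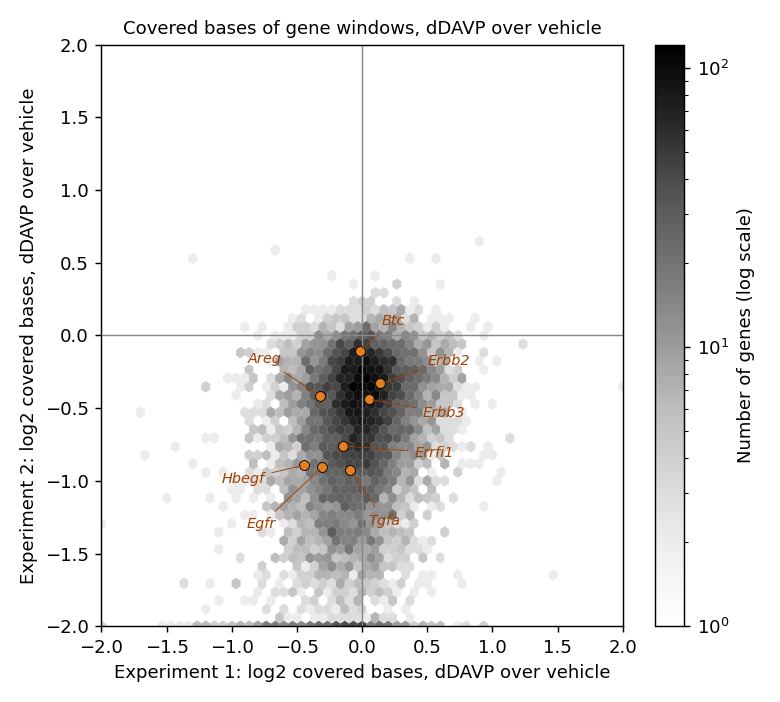
Log2 ratio of covered bases in a gene's window, dDAVP over vehicle, in experiment 1 (horizontal) and experiment 2 (vertical), with values beyond the axes drawn at the edge. Grey hexagons count the genes with a peak in all 4 lists on a log scale and orange points are the 8 named genes among them. Hbegf is the point farthest to the left, and Erbb2 and Erbb3 lie to the right of 0 in experiment 1.

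Ordered by the mean log2 ratio of covered bases over the 2 experiments, the 8 genes ran from Btc at -0.06 ± 0.06, Erbb2 at -0.10 ± 0.33, Erbb3 at -0.19 ± 0.34 and Areg at -0.37 ± 0.07 to Errfi1 at -0.45 ± 0.43, Tgfa at -0.51 ± 0.59, Egfr at -0.60 ± 0.42 and Hbegf at -0.67 ± 0.32 (SD, n = 2 pairs each). Every neighbouring pair in this order differed by less than the larger of its 2 SDs, so no neighbours are told apart. By the Euclidean distance over the 4 shares of the window covered, the genes most like Btc were Usp1, Vamp3 and Sirt3, at 0.433, 0.477 and 0.533 percentage points. Those most like Hbegf were 1810062G17Rik, Ccdc12 and Proser2, at 4.50, 5.14 and 5.69 percentage points. The 2 sets of distances are not compared, since peaks covered 15.8% to 44.3% of the Hbegf window and 5.68% to 8.53% of the Btc window.

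Beyond these 10 genes, 50 genes of the ErbB pathway were listed by role. A peak lay in the window in all 4 lists for 45 of them, against 62.0% of all genes, and 26 of those had fewer covered bases with dDAVP in both experiments, near the 52.5% of all genes with a peak in all 4 lists. More covered bases in both were seen for 0, against 2.34%. Their median ratios were 0.982 in experiment 1 and 0.635 in experiment 2, beside 0.921 and 0.664 for the 8 genes above and 0.985 and 0.694 for all genes. By role, fewer bases in both experiments were seen for 3 of 4 other ErbB ligands, 5 of 6 ligand shedding genes, 10 of 22 adaptors and downstream kinases and 8 of 13 negative feedback genes, each to be read against that 52.5%. A decrease of at least 1.5 times in both experiments was seen for 2 of the 45 genes, near the share of 3.76% among all 13562. Nrg2, which encodes a neuregulin, had 408 and 1658 bp covered with dDAVP and 2458 and 2493 bp with vehicle. Ptpn11, which encodes the phosphatase SHP2 downstream of the receptors, had 11091 and 3791 bp covered with dDAVP and 18299 and 7217 bp with vehicle.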

How the data were processed

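The 4 deposited peak lists came from 8 libraries, 4 immunoprecipitated and 4 input. The submitters' processing notes name BWA, SAMtools and mm10. The peak caller was MACS 2.1.1.20160309, set to broad peaks with q limits of 0.01 and 0.1 and at most 1 tag per position, and run on each library against its own input without pooling, per the file headers. The lists hang on the input records, but names and headers show which immunoprecipitated library each holds. Peak names in the lists of experiment 2 carry another experiment number. The deposited signal (pileup) is the caller's tag coverage of a peak, and the deposited fold is the authors' ratio to local background, used only within a list. A deposited -log10 p-value and then a -log10 q-value are taken to fill 2 columns whose names were lost.

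From these, bases inside peaks (overlap of at least 1 bp) were counted per RefSeq window with Python 3.11.15, numpy 2.4.6 and pandas 2.3.3 and compared within each experiment. Pileup was divided by the kept tags of the smaller data set of each call (27923780 and 30753752 for dDAVP 1 and 2, 32705755 and 31283282 for vehicle 1 and 2) and multiplied by 1000000, since the caller scales to it, and immunoprecipitation efficiency is not corrected. Counting functions were tested on simulated data. Named genes are the 10 genes, their neighbours, Epgn, pathway genes changed at least 1.5 times in both experiments, and the 3 genes most like the extreme members. The members, gene lists and motifs were chosen with earlier results of these data known. Alternatives trimmed lists, raised thresholds, changed windows and left out each list. Strand was taken from the promoter table, and peak sequence and protein sequence were not used here.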

Additional observations from a re-analysis of the deposited data

How the results depend on the processing

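No paired test was run, since the smallest exact permutation p that 2 pairs allow is 0.5. The differences printed are descriptions of the 2 within-experiment pairs. Lists trimmed to equal length turned the mean difference in covered bases of the Btc window, dDAVP minus vehicle, to 3109.5 bp. That of the ligand cluster turned to 3015.5 bp. In that setting 1 of 7 genes had more bases in both experiments, against 4.00% of genes. Vehicle-only regions were 0 of 35, against 362 of all 23654. Trimming to equal length within each experiment gave 1189.5 bp for Btc and 1619.5 bp for the cluster. Trimming to equal covered bases gave 1189.5 bp for Btc, 182 bp for Areg and 1995 bp for the cluster. It left 3 of 7 genes with fewer bases in both experiments (Hbegf, Tgfa and Errfi1), against 35.0% of genes. More bases were seen for 1, against 15.9%. Vehicle-only regions were 0 of 53, against 6 of all 40130. A -log10 q of at least 5 gave 3109.5 bp for both Btc and the cluster. It left 1 of 7 genes with more, against 2.82%, and 1 of 27 regions vehicle-only, against 689 of all 17515. A fold of at least 5 left 5 genes with a peak and 5 with a called promoter in all 4 lists. It gave 1 gene with a lower highest pileup in both experiments. Vehicle-only regions were then 0 of 17, against 497 of all 10948. The gene span alone gave 1 gene with a lower highest pileup and 1 of 42 regions vehicle-only, against 1149 of all 45705. Margins of 5 kb gave 384.5 bp for Btc and 1 of 8 genes with more, against 3.37%. Margins of 50 kb gave 1 gene with a lower highest pileup. Division by fragment length, chosen after seeing the data like all settings for highest pileup and vehicle-only regions, gave 5 such genes. Leaving out either list of experiment 1 gave 8 of 8 genes with fewer bases, against 96.3% of all genes, and 0 with more. Without dDAVP replicate 2, 7 of 9 had fewer and 2 more, against 54.5% and 45.4%. Without vehicle replicate 2, 6 of 8 had fewer and 2 more, against 53.8% and 46.1%. A lower highest pileup was seen for 4 genes (either list of experiment 2 left out) or 7 (either list of experiment 1). For the counts of highest pileup, no share of all genes was computed. Vehicle-only regions were 7, 5, 2 and 7 of 58 without dDAVP 1, vehicle 1, dDAVP 2 and vehicle 2. Of all 45705 regions, 6918, 2885, 1292 and 8175 were of this kind. The cluster ran from -1619 to 973 bp. Without a list, its experiment gives no difference, so the other experiment decides. In every other setting these counts and the cluster stayed within 1.5 times the reported count or within 1 SD. The genes behind the count with fewer bases did change. A fold of at least 5 gave Btc, Tgfa, Egfr, Erbb2 and Erbb3, against 50.3% of genes. Equal length gave Hbegf, Tgfa, Erbb3 and Errfi1, against 49.2%. The gene span alone and margins of 5 kb held Erbb3 in place of Btc, against 45.5% and 50.6%. Each library's 27923780 to 32705755 kept tags limit which weak peaks pass the caller's limit; a window listed at 0 bases, as for Ereg, shows only that no peak was called. Apart from the Btc and Areg vehicle peaks that trimming dropped, the causes of these shifts were not tested.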
